A study of Homo sapiens with 6 samples.

Results

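The genes described here are 10 members of the integrated stress response that runs through the transcription factor ATF4: ATF4, ATF3, DDIT3, TRIB3, CHAC1, SESN2, DDIT4, ASNS, PSAT1 and PHGDH. They were chosen by name, and all 10 were found once among the 36601 genes of the files. Their transcripts were measured by Seq-Well S3, a single-cell RNA-seq method in which cells share small wells with barcoded beads, in SK-N-BE(2)-C, a single established line of human neuroblastoma. The 6 libraries were made of 2 replicates each of cells given DMSO (the solvent), TSA (the usual short form of trichostatin A, which inhibits the enzymatic activity of histone deacetylases, HDACs) or E6R, and the series title refers to inhibiting an HDAC complex without acting on its enzymatic activity. The sources used here give no dose, no treatment time and no structure of E6R. They do not say whether the replicates were separate cultures, so the p-values measure only the spread between these libraries.

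In the integrated stress response, kinases that sense misfolded protein, missing amino acids, viral RNA or low heme phosphorylate the translation factor eIF2. Most translation then slows, while the ATF4 messenger is translated more, so ATF4 protein can rise with little change in its transcript. ATF4 binds DNA as a dimer with C/EBP or related proteins at C/EBP-ATF response elements and raises genes of amino acid supply, redox balance and stress signalling. The response can also be turned against the cell through DDIT3, better known as CHOP.

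The promoters of the members were searched for that element, because ATF4 dimers bind it. RefSeq promoters of GRCh38.p14 were found for all 10 members, with 16 promoters in all since some genes have several start sites, and the 250 bases before each start were read on both strands. The motif TGATGNAA was present before a start of 3 of the 10 members, in 3 of the 16 promoters, and in 3.14% of all 35116 promoters of the same length. The 30 bases around each match are printed with the motif in capitals. The ATF3 match began 191 bases before its start at chr1:212565205-212565234 (plus strand), the ASNS match 68 bases before at chr7:97872458-97872487 (minus strand), and the CHAC1 match 209 bases before at chr15:40953251-40953280 (plus strand). In CHAC1 the motif lies in reverse orientation. Both the ASNS and the CHAC1 window fall inside the longer gene models of GENCODE 29.
ATF3: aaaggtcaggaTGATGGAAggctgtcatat
ASNS: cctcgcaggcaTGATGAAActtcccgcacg
CHAC1: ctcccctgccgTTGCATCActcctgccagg
The cAMP response element TGACGTCA, which other ATF and CREB dimers bind, was in 0 of the 16 member promoters and in 1.65% of all promoters. The ER stress response element was in 0 of the 16 and in 0.0740% of all. All 3 searches read these letters in these windows only, so they cannot show that a member lacks a site. Of the 3 genes with the TGATGNAA match, ATF3 alone had a called difference in any comparison below.

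Cells were barcodes with at least 500 genes and at most 20% of UMIs from mitochondrial genes, which left 17589 cells, 1861 to 3946 per library. UMIs (unique molecular identifiers, each standing for 1 captured transcript) summed to between 4206366 and 26180262 per library, and the DMSO libraries were the shallowest. The 1% of cells with most UMIs held 8.77% to 22.5% of them, depending on the library. Levels are given as CPM, the usual depth-scaled unit of counts, with library sizes adjusted by TMM. They can be compared between libraries but not between genes. Any 2 libraries shared 11 to 58 kept barcodes. The deposited data of TSA replicate 2 carry the tag reWTA, which the other 5 libraries lack and whose meaning the labels do not give. Member results are given without that library where it decides a call. For single genes named from the lists below, whether the call held without it is not given. All 10 markers of adrenergic neuroblastoma were detected in both libraries of every group, with a summed level of 3261 to 5833 CPM. Summed mesenchymal markers were higher in both TSA libraries (3312 and 2195 CPM) than in the DMSO (1171 and 735 CPM) and E6R libraries (1979 and 1268 CPM). Most of that sum was VIM (2840 and 1760 CPM with TSA). Of the 8 markers, VIM, FN1, COL1A1 and YAP1 were above both DMSO libraries in both TSA libraries, COL1A2 was below, and PRRX1, COL3A1 and SNAI2 overlapped. Immune markers summed to at most 4.18 CPM in any library. Mitochondrial UMIs made up 5.83% and 6.20% of the DMSO libraries, 6.08% and 9.71% of the TSA libraries, and 1.55% and 1.51% of the E6R libraries. Whether these differences bear on any result below was not tested.

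**Figure D1:**
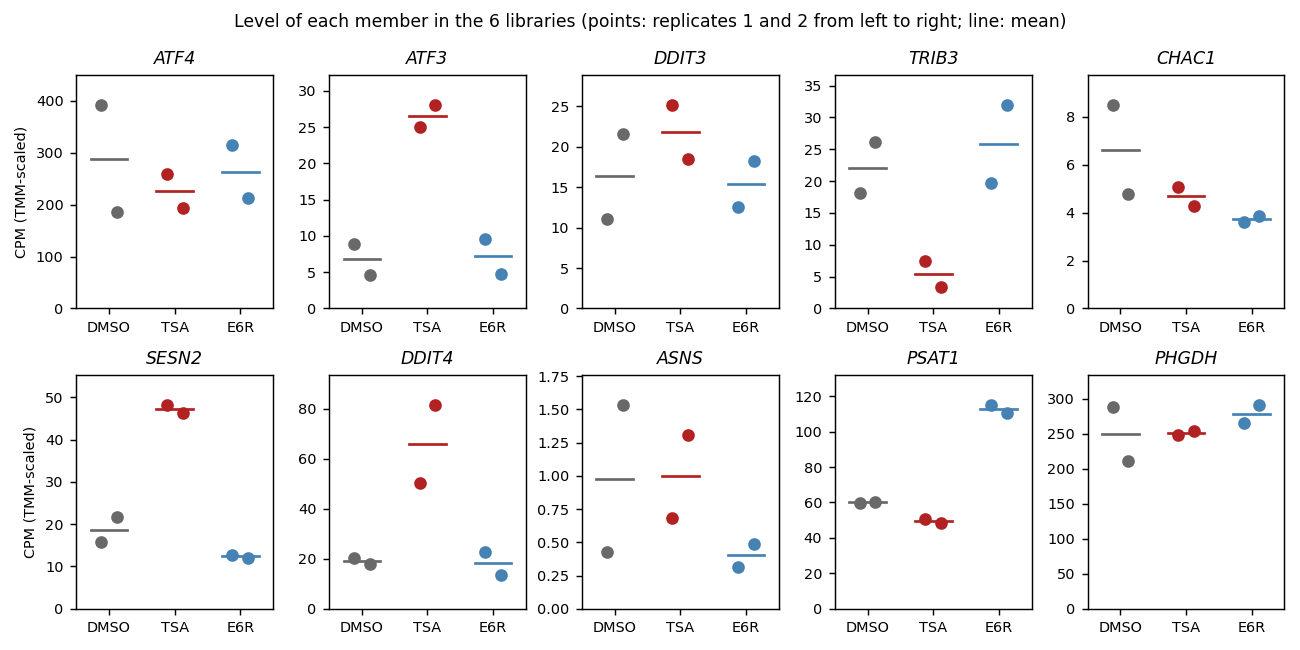
Level of each member in the 6 libraries, in TMM-scaled CPM (linear axes from 0, a scale of its own per gene). Points are replicates 1 and 2 from left to right and lines are group means; ATF3, SESN2 and DDIT4 stand above and TRIB3 below the other groups in both TSA libraries, and PSAT1 stands above in both E6R libraries.

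TSA split the members. ATF3, SESN2 and DDIT4 rose and TRIB3 fell against DMSO, while ATF4 itself, DDIT3, CHAC1 and the amino acid synthesis genes ASNS, PSAT1 and PHGDH did not pass the test. That was 4 of 10 members called by edgeR's quasi-likelihood test at an adjusted p under 0.05, beside 29.7% of the 16763 genes tested, 16.2% higher and 13.5% lower. The members' share thus lay near that of all genes. With libraries scaled by total counts only, which moved the median of all genes to -0.32 on the log2 scale, 33.8% of all called genes were higher, against 54.7% with TMM. The directions of the 4 called members were the same under every scaling tried. Members had a median log2 fold change of 0.00, beside -0.01 over all genes. All 10 passed the filter on low counts. Left-out libraries changed the count: leaving out TSA replicate 2 gave 0 called members, leaving out DMSO replicate 2 gave 1, and leaving out TSA replicate 1 gave 2, as did thinning each cell to 1000 UMIs.

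E6R moved none of the members past the threshold. The call rate over all genes was 0% in the edgeR test, so the test had no call for any gene. At an unadjusted p under 0.05 there were 2 members, PSAT1 and SESN2, or 2 of 10 beside 17.4% of all genes, and DESeq2 called 1 member, PSAT1, and 338 genes in all. Between the treatments, E6R against TSA, 5 of 10 members were called (2 higher, 3 lower), beside 38.2% of all genes, 18.7% higher and 19.5% lower. E6R and TSA were each compared with the same 2 DMSO libraries, and the third comparison rests on the same 4 treated libraries.

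**Figure D2:**
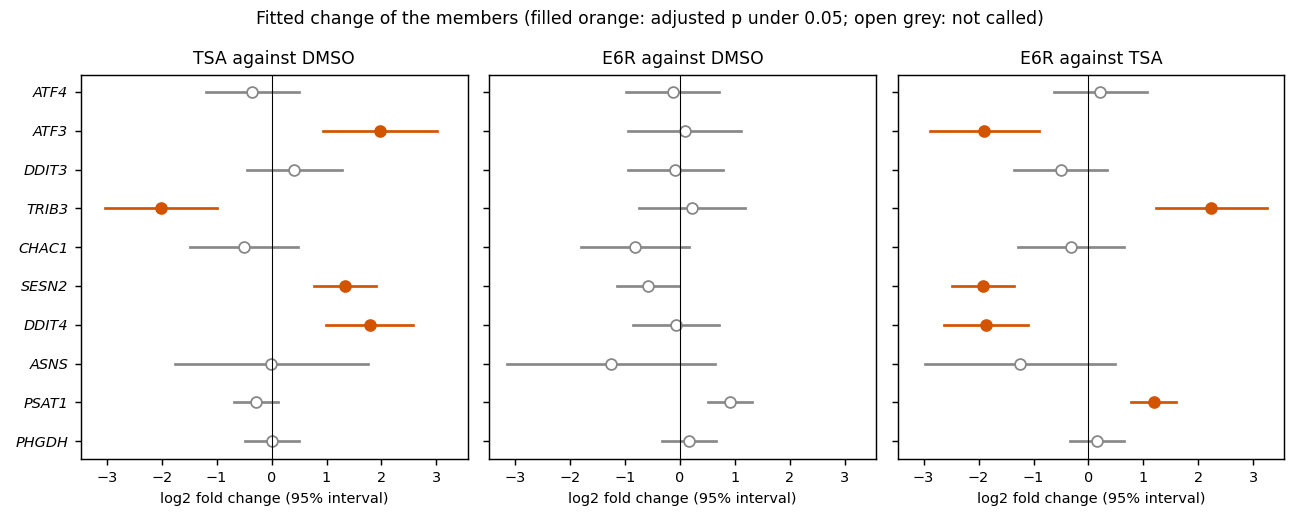
Fitted log2 fold change of each member in the 3 comparisons, with its 95% interval from the edgeR fit. Filled orange points have an adjusted p under 0.05 and open grey points do not; the ASNS intervals are the widest, and ATF3, SESN2, DDIT4 and TRIB3 take opposite sides in the outer panels.

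ATF4 (chr22:39519695-39522685, plus strand, GENCODE 29 on GRCh38) stood at 392 and 186 CPM in the DMSO libraries, 260 and 193 CPM in the TSA libraries and 315 and 213 CPM in the E6R libraries. Replicate 1 was above replicate 2 in every group, and the 3 groups overlapped. The fitted log2 difference was -0.35 for TSA against DMSO (95% interval -1.20 to 0.50, adjusted p = 0.495) and -0.13 for E6R against DMSO (95% interval -0.98 to 0.71, adjusted p = 0.879). The TSA interval reaches past a halving and the E6R interval nearly does, so changes of about that size are not excluded. Of the 7510 genes that averaged at least 20 CPM and are no members, the 5 most like ATF4 over the 6 libraries, by the Pearson r of their log2 levels, were MBOAT2, a phospholipid acyltransferase (0.98), BGN, a matrix proteoglycan (0.98), ITGA11, a collagen-binding integrin (0.97), KLHDC2 (0.96) and ZNF561 (0.95). As with ATF4, replicate 1 was the higher one in each group for all 5, and for BGN the levels were 349 and 97.3 CPM in the DMSO libraries. In 28 of the 7510 genes r was above 0.9. The summed level of 5 epithelial or endothelial markers was also the higher in replicate 1 of each group, at 34.0 and 4.02 CPM with DMSO, 10.7 and 4.96 CPM with TSA and 40.0 and 2.30 CPM with E6R, most of it from PECAM1 and VWF. Its part in the ATF4 levels was not tested.

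ATF3, a bZIP repressor that ATF4 and other stress pathways induce, was counted at 8.92 and 4.59 CPM with DMSO, 25.1 and 28.0 CPM with TSA and 9.60 and 4.74 CPM with E6R. Both TSA libraries were above all 4 others. The log2 fold change was 1.98 for TSA against DMSO (SE 0.45, adjusted p = 0.0147, edgeR) and -1.90 for E6R against TSA (SE 0.43, adjusted p = 0.0108). Against DMSO the E6R value was 0.08 (95% interval -0.95 to 1.11). The TSA call was lost without DMSO replicate 2 (log2 1.49) and without TSA replicate 1 (2.08) or 2 (1.93). With each cell thinned to 1000 UMIs it was also lost, and the log2 difference was smaller (1.36, adjusted p = 0.0562, edgeR). E6R against TSA was no longer called without TSA replicate 1 (adjusted p = 0.0573) or 2 (0.0812). Immediate-early and harvest stress genes, a list of 14 that does not hold ATF3, moved with it. Under TSA 8 of the 14 rose and 0 fell, beside 16.2% and 13.5% of all tested genes. Their summed level was 1882 and 1923 CPM in the TSA libraries, 704 and 602 CPM with DMSO and 695 and 622 CPM with E6R. FOS, a partner in AP-1, rose from 14.6 ± 12.0 to 241 ± 9.0 CPM (SD, n = 2 each). Cells were detached with an enzyme before loading, per the labels' protocols, and the part of this list in the ATF3 difference was not tested.

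DDIT3, the CHOP factor of prolonged stress, stood at 11.1 and 21.6 CPM with DMSO, 25.1 and 18.5 CPM with TSA and 12.6 and 18.2 CPM with E6R. DMSO overlapped both other groups, and both E6R libraries were below both TSA libraries, a difference that was not called (log2 -0.50, adjusted p = 0.309). Its log2 differences were 0.41 for TSA (95% interval -0.46 to 1.28, adjusted p = 0.431) and -0.09 for E6R (-0.96 to 0.78) against DMSO. In GENCODE 29, 27.2% of its exonic bases are shared with MARS, the methionyl-tRNA synthetase gene on the opposite strand. Whether the counting used strand is not stated in the sources used here, so the DDIT3 counts are uncertain to that extent.

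TRIB3, a pseudokinase that ATF4 induces and that holds ATF4 and AKT signalling back, was the member that TSA lowered. Its levels were 18.1 and 26.2 CPM with DMSO, 7.52 and 3.40 CPM with TSA and 19.7 and 31.9 CPM with E6R. Both TSA libraries were below all 4 others, which overlapped each other. The log2 fold change was -2.01 for TSA against DMSO (SE 0.44, adjusted p = 0.0132) and 2.24 for E6R against TSA (SE 0.44, adjusted p = 0.00599). The first call was lost without DMSO replicate 2 (adjusted p = 0.0651) or TSA replicate 2 (0.0927), whereas E6R against TSA was called in all 17 alternatives. E6R against DMSO gave 0.22 (95% interval -0.74 to 1.19).

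CHAC1, which breaks down glutathione, was low in every library, at 25 to 103 UMIs. It stood at 8.50 and 4.78 CPM with DMSO, 5.09 and 4.27 CPM with TSA and 3.60 and 3.88 CPM with E6R. Both E6R libraries were below the other 4, with a log2 difference of -0.82 against DMSO (95% interval -1.81 to 0.16, adjusted p = 0.357), and TSA against DMSO gave -0.50 (adjusted p = 0.402).

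SESN2 and DDIT4 (also called REDD1), which restrain the growth kinase complex mTORC1 through amino acid sensing and through TSC, rose together with TSA. SESN2 stood at 15.7 and 21.6 CPM with DMSO, 48.1 and 46.2 CPM with TSA and 12.8 and 12.1 CPM with E6R. Both TSA libraries were above and both E6R libraries below the DMSO pair. The log2 fold change was 1.33 for TSA against DMSO (SE 0.24, adjusted p = 0.00665) and -1.92 for E6R against TSA (SE 0.24, adjusted p = 0.00112), and the E6R value against DMSO was -0.59 (95% interval -1.15 to -0.03, adjusted p = 0.272). The TSA against DMSO call was lost without TSA replicate 1 (log2 1.34) or 2 (1.40). With each cell thinned to 1000 UMIs it was also lost, and the log2 difference was smaller (0.79, adjusted p = 0.0651, edgeR).

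DDIT4 was counted at 20.4 and 17.8 CPM with DMSO, 50.2 and 81.3 CPM with TSA and 22.8 and 13.5 CPM with E6R. Both TSA libraries were above all others, although they differed from each other by more than the DMSO and E6R values spanned. For TSA against DMSO the log2 difference was 1.78 (SE 0.34, adjusted p = 0.00799), and E6R against TSA gave -1.86 (SE 0.33, adjusted p = 0.00422). The TSA call was lost without DMSO replicate 2 (adjusted p = 0.0618) or TSA replicate 2 (0.0695). The antisense gene DDIT4-AS1 shares 41.2% of the exonic bases of DDIT4 and had 1 to 44 UMIs per library, most in the TSA libraries. Reads of the 2 genes cannot be told apart without strand.

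Of the 3 amino acid synthesis genes, PSAT1 alone had a called difference, and only between E6R and TSA. PHGDH, which makes the first step from glycolysis to serine, stood at 288 and 211 CPM with DMSO, 247 and 254 CPM with TSA and 266 and 291 CPM with E6R. DMSO overlapped both other groups, and both E6R libraries were above both TSA libraries, a difference that was not called (log2 0.15, adjusted p = 0.598). The log2 differences against DMSO were 0.01 for TSA (95% interval -0.48 to 0.50) and 0.16 for E6R (-0.33 to 0.65).

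PSAT1, the aminotransferase of the next step, stood at 59.9 and 60.4 CPM with DMSO, 50.4 and 48.6 CPM with TSA and 115 and 111 CPM with E6R. Within each group the replicates lay close, and the 3 groups did not overlap. Against DMSO, E6R gave a log2 difference of 0.91 (SE 0.18, 95% interval 0.50 to 1.31) with an adjusted p of 0.205 in edgeR, where no gene passed, and its unadjusted p ranked 44 of 16763. DESeq2 gave an adjusted p of 0.00307, and edgeR with no filter on low counts 0.00505. Over the 17 alternatives the adjusted p ranged from 0.00307 to 0.655. Against TSA, E6R was higher by 1.19 (SE 0.18, adjusted p = 0.00199), called in all 17 alternatives. TSA against DMSO gave -0.28 (95% interval -0.69 to 0.12), which passed only with scaling by total counts (adjusted p = 0.0464). Groups that do not overlap were common in these data: for E6R against DMSO, 1 member was higher and 2 were lower in this sense, beside 24.6% and 22.7% of all genes. For TSA against DMSO, 3 members were higher and 2 lower, beside 6150 and 5808 of the 16763 genes. For E6R against TSA, 3 members were higher and 6 lower, beside 5641 and 6525 genes.

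ASNS, the asparagine synthetase, was barely counted. It had 2 and 8 UMIs in the DMSO libraries, 9 and 15 with TSA and 5 and 13 with E6R, with levels of 0.32 to 1.53 CPM. DMSO overlapped both other groups, and both E6R libraries were below both TSA libraries. The intervals were wide (-1.76 to 1.75 for TSA against DMSO), and DMSO replicate 1 lay under a floor of 3 counts. Neither a change nor its absence is read at this depth. In GENCODE 29, 44.6% of its exonic bases are shared on the same strand with AC079781.5, which had 10 to 28 UMIs per library. How reads that fall in 2 genes were counted is not stated, so the ASNS level is uncertain.

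Shares of cells with at least 1 UMI were compared at matched depth. Cells were thinned to 1000 UMIs, and 5652 shallower cells were left out: 674 and 1450 with DMSO, 615 and 503 with TSA and 692 and 1718 with E6R. The median depth before thinning was 1268 and 1054 UMIs with DMSO, 1728 and 1876 with TSA and 1880 and 1124 with E6R. ATF4 was then seen in 34.5% and 17.5% of DMSO cells, 21.4% and 14.8% of TSA cells and 25.2% and 20.02% of E6R cells. Unthinned, the shares were 45.9% and 23.1%, 46.1% and 33.3%, and 52.9% and 35.2%. The DMSO replicates alone spanned all the thinned TSA and E6R shares except that of TSA replicate 2.

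Thinned DDIT4 was seen in 2.19% and 2.08% of DMSO cells, 3.78% and 6.42% of TSA cells and 2.27% and 1.35% of E6R cells (unthinned 4.41% and 2.62%, 15.0% and 18.1%, 8.89% and 5.32%). Thinned SESN2 shares were 2.36% and 2.26% with DMSO, 3.83% and 3.23% with TSA, and 1.41% and 1.12% with E6R (unthinned 3.49% and 3.22%, 16.1% and 10.6%, 5.26% and 5.52%). The gap between TSA and DMSO in these 2 genes was narrower at equal depth. Thinned TRIB3 was seen in 2.19% and 2.50% of DMSO cells, 0.65% and 0.25% of TSA cells and 2.05% and 2.33% of E6R cells. The TSA shares rested on 12 and 7 cells with 1 UMI each, so no size of change is read from them. Unthinned TRIB3 shares were 4.08% and 4.18%, 3.57% and 1.002%, and 7.82% and 10.8%, where the TSA and DMSO shares lay closer than at equal depth.

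Thinned PSAT1 was seen in 5.90% and 6.30% of DMSO cells, 4.05% and 3.84% of TSA cells and 9.55% and 8.53% of E6R cells. Unthinned, they were 10.8% and 8.88%, 17.1% and 11.8%, and 28.1% and 20.9%, so TSA stood above DMSO without thinning and below it with thinning. Thinned ATF3 was seen in 1.18% and 0.65% of DMSO cells, 1.89% and 1.90% of TSA cells and 1.05% and 0.45% of E6R cells. These shares are near the level of single UMIs, and no change is read from them. The same holds for CHAC1 (1.18% and 0.65% with DMSO, 0.59% and 0.32% with TSA, 0.36% and 0.27% with E6R) and DDIT3 (1.18% to 2.27% over the 6 libraries). Thinned PHGDH was seen in 18.1% to 25.02% of cells. The DMSO shares overlapped both other groups, and those of E6R (23.3% and 24.8%) were above those of TSA (19.6% and 18.1%). ASNS was seen in 0 of 1187 and 0 of 1682 thinned DMSO cells, with exact 95% upper limits of 0.310% and 0.219% that cover counting error only. With 2 libraries against 2, an exact two-sided permutation test of a share cannot go below p = 0.333, so no share was tested.

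**Figure D3:**
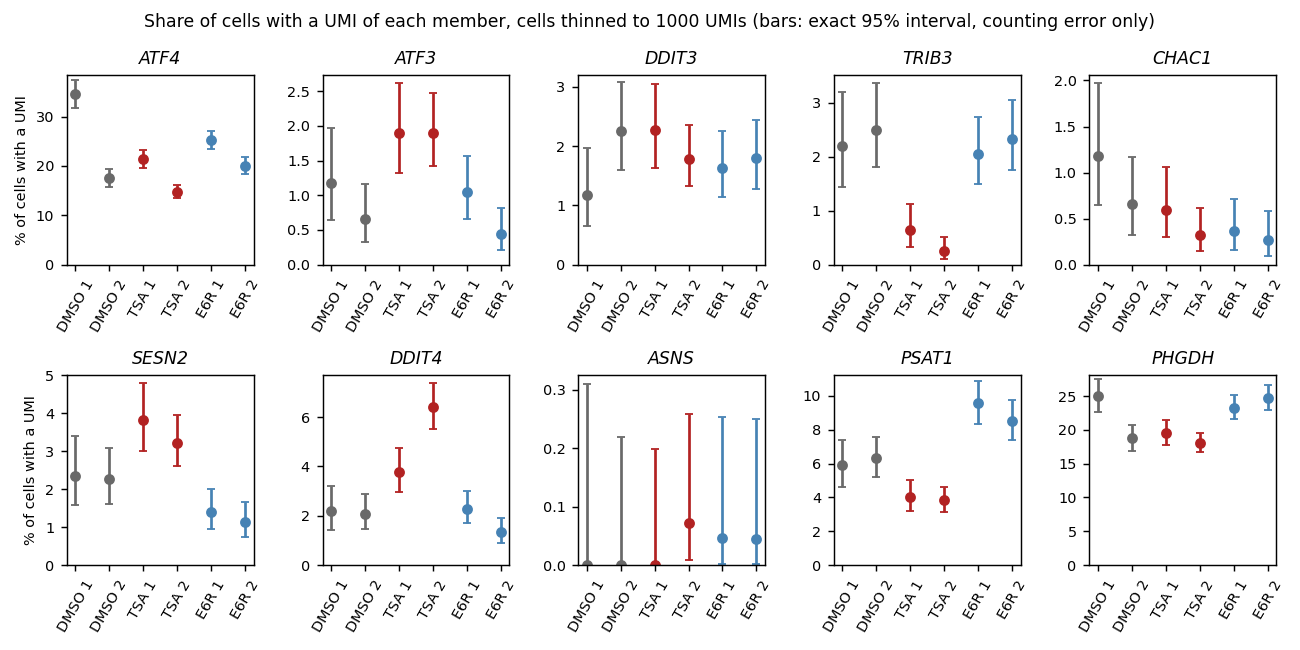
Share of cells with a UMI of each member per library, in percent, after thinning each cell to 1000 UMIs (linear axes from 0, a scale of its own per gene). Bars are exact (Clopper-Pearson) 95% intervals for counting error; the TRIB3 shares of both TSA libraries lie below, and the PSAT1 shares of both E6R libraries above, those of the other groups.

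Free RNA can add UMIs to cells that do not express a gene, and a single cell line holds no cell type that should lack these genes. The barcodes with fewer than 500 genes, 11033 to 13084 per library with a median of 121 to 298 UMIs, were used as a measure of it, with CPM taken over their own UMIs. TRIB3 stood at 16.9 and 27.0 CPM in small DMSO barcodes and at 6.84 and 3.79 CPM in small TSA barcodes, and PSAT1 at 47.5 and 52.6 CPM with DMSO and 86.0 and 85.6 CPM with E6R, so both differed between groups in the same direction as in cells. CHAC1 did not: it stood at 3.995 and 4.02 CPM in small DMSO barcodes, 4.10 and 2.84 CPM with TSA and 2.62 and 4.39 CPM with E6R, where the groups overlapped. Small TSA barcodes were above small DMSO barcodes for ATF3 (13.0 and 20.5 against 7.99 and 7.76 CPM) and DDIT4 (34.9 and 63.8 against 21.8 and 12.6 CPM). The same held for SESN2 (33.9 and 29.1 against 11.5 and 24.4 CPM). With E6R, SESN2 (8.30 and 15.9 CPM) overlapped DMSO in small barcodes, unlike in cells. Small barcodes may hold shallow cells as well as free RNA, so the share of free RNA in the cell counts was not separated.

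Within a library, few cells held several members at once. In thinned cells the 10 members together gave 0.915 and 0.581 UMIs per cell with DMSO, 0.651 and 0.549 with TSA and 0.767 and 0.700 with E6R. The Fano factor of that sum (its variance over its mean, 1 for counts scattered at random) was 1.35 in DMSO replicate 1 and 1.04 to 1.17 in the other 5 libraries. Cells with 3 or more members made up 2.7% of DMSO replicate 1 (exact 95% interval 1.85% to 3.78%) and 0.76% to 1.91% of the others. TRIB3 and CHAC1, a pair singled out after its values were seen, were found together in 4 cells of DMSO replicate 1 and in 0 cells of each other library.

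The upstream arm, a list of 19 genes of eIF2 kinases, eIF2, eIF2B and the eIF2 phosphatase, had 9 genes higher and 3 lower under TSA, with a median log2 fold change of 0.48. Over all tested genes, 16.2% were higher and 13.5% lower under TSA, which are the shares to set beside each list. EIF2AK1, the heme-sensing kinase HRI, rose from 401 ± 30.9 to 1102 ± 61.6 CPM (SD, n = 2 each; log2 1.46, SE 0.20, adjusted p = 0.00253). PPP1R15B, which directs the phosphatase to eIF2, rose by 1.65 (SE 0.23, adjusted p = 0.00273). EIF2AK2, the RNA-sensing kinase PKR, fell by 2.08 (SE 0.21, adjusted p = 0.00108), and the amino acid sensor EIF2AK4 (GCN2) fell by 0.94 (SE 0.19, adjusted p = 0.0091). EIF2AK3 (PERK), which senses misfolded protein and was named after its values were seen, rose by 1.64 (SE 0.40, adjusted p = 0.0182). The 4 kinases thus moved in both directions. The list had 4 called genes instead of 12 without either TSA library, and 6 without DMSO replicate 2.

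ATF4 partners and related bZIP factors, a list of 11, had 1 gene higher and 4 lower under TSA, with a median of -0.68 (2 called without DMSO replicate 1 or TSA replicate 1, 1 without TSA replicate 2). ATF5, a stress factor close to ATF4, fell from 66.3 ± 0.9 to 10.6 ± 1.4 CPM (SD, n = 2 each; log2 -2.64, SE 0.28, adjusted p = 0.00114) and stood 2.50 higher with E6R than with TSA (SE 0.27, adjusted p = 0.000698). NFE2L2 (NRF2), the redox regulator, fell by 1.34 (SE 0.22), and CREB1 fell by 0.75 (SE 0.20). Amino acid transporters, 11 of 12 tested, likewise had 1 higher and 4 lower, with a median of -0.91 (3 called without either DMSO library, 2 without TSA replicate 1, 1 without TSA replicate 2, 3 with cells thinned). SLC38A1, a glutamine carrier, fell from 176 ± 33.3 to 16.0 ± 1.7 CPM (log2 -3.46, SE 0.23, adjusted p = 0.000489, n = 2 each), while SLC7A5, the leucine carrier LAT1, rose by 1.06 (SE 0.29, adjusted p = 0.0282). SLC7A11, the cystine carrier, named after its values were seen, went from 35.1 and 17.0 CPM with DMSO to 4.63 and 3.05 CPM with TSA (log2 -2.75, SE 0.48, adjusted p = 0.00559) and was at 29.4 and 15.8 CPM with E6R.

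Of the 21 genes of a list of cytosolic aminoacyl-tRNA synthetases, which charge tRNAs, and the tRNA exporter XPOT, 7 were higher and 1 lower under TSA, with a median of 0.44. Without DMSO replicate 1 or 2, 5 and 3 were called, and without either TSA library 2. RARS rose by 1.45 (SE 0.20, adjusted p = 0.00238) and WARS by 1.31 (SE 0.24, adjusted p = 0.00677), while XPOT fell by 0.60 (SE 0.19, adjusted p = 0.0478). Serine, one-carbon, proline and sulfur amino acid enzymes had 3 of 13 higher and 1 lower (2 called without DMSO replicate 2, and 1 without DMSO replicate 1 or either TSA library). With cells thinned 1 was called. There were 2 with total counts, no low-count filter, library sums thinned, the 5% of cells with most UMIs left out, or mitochondrial and ribosomal protein genes left out. There BCAT1, which transfers the amino group of branched-chain amino acids, fell from 198 ± 30.4 to 31.1 ± 6.5 CPM (log2 -2.67, SE 0.24, adjusted p = 0.000777, n = 2 each) and GOT1 rose by 0.97 (SE 0.20). The called share of the serine list lay near the 29.7% of all tested genes. Other known ATF4 targets had 2 of 21 higher and 0 lower, a smaller share than that. Among them was WIPI1, an autophagy gene (log2 1.87, SE 0.53, adjusted p = 0.0333). There 4 were called without either E6R library and 1 without any other library, and 6 with no low-count filter.

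The unfolded protein response genes of the ATF6 and XBP1 branches had 11 of 18 higher and 1 lower under TSA, with 6 called without DMSO replicate 2 or TSA replicate 2 and 7 without TSA replicate 1. CALR, a chaperone of the endoplasmic reticulum, rose from 558 ± 70.4 to 2543 ± 322 CPM (SD, n = 2 each; log2 2.19, SE 0.25, adjusted p = 0.00145), and HYOU1 rose by 1.73 (SE 0.32, adjusted p = 0.00688). XBP1 itself fell by 0.79 (SE 0.19, adjusted p = 0.0174). The list's summed level was 4326 and 4538 CPM with DMSO, 11311 and 10741 CPM with TSA and 6675 and 6993 CPM with E6R. Both E6R libraries lay between the other 2 groups.

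**Figure D4:**
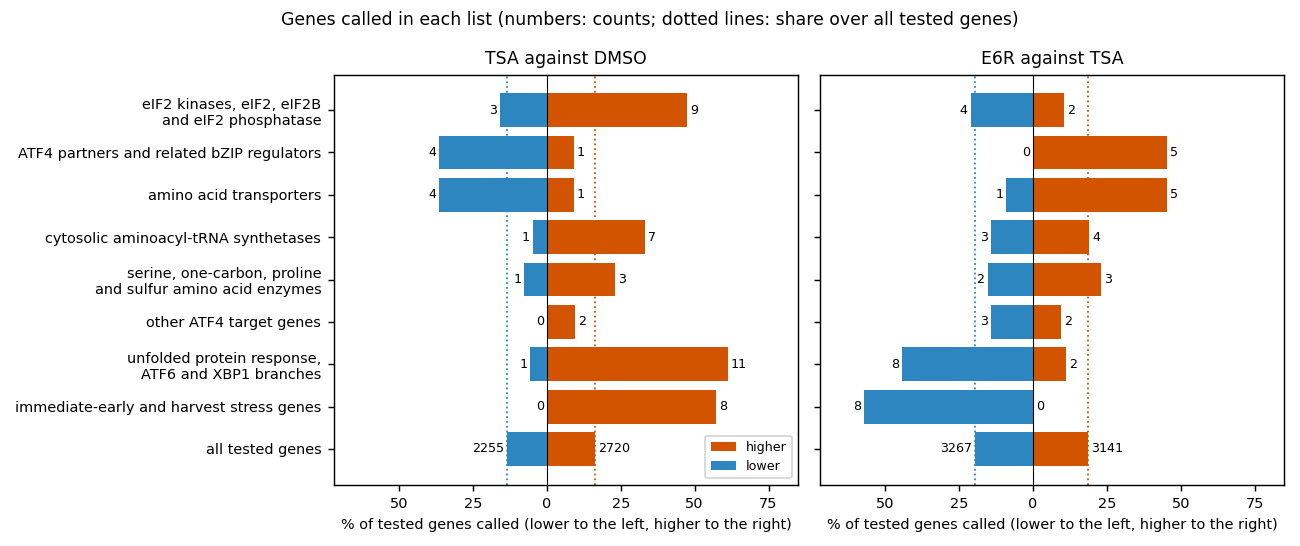
Genes called in each list, as a percentage of those tested, for TSA against DMSO and E6R against TSA (lower to the left, higher to the right, with the number of genes at each bar). Dotted lines mark the share over all 16763 tested genes; the unfolded protein response and immediate-early lists reach farthest to the higher side under TSA, and the bZIP and transporter lists to the lower side.

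For E6R against DMSO, edgeR called 0 genes in each of the 8 lists. At an unadjusted p under 0.05 there were 11 of 21 synthetase genes, 9 of 18 unfolded protein response genes, 6 of 19 eIF2 genes, 4 of 13 serine and related enzymes and 0 or 1 in each of the other 4 lists, beside 17.4% of all genes. DESeq2 called 4, 4, 1 and 2 genes in the first 4 of these lists and 0 in the others. Their medians were 0.48, 0.40, 0.27 and 0.48, beside 0.03 over all genes. The smallest p in each of these 4 lists belonged to DARS (45.9 ± 2.1 with DMSO and 78.2 ± 1.8 CPM with E6R), PDIA6 (384 ± 9.9 and 698 ± 30.9 CPM), EIF2S3 (135 ± 35.7 and 246 ± 29.1 CPM) and MTHFD1L (20.9 ± 5.5 and 42.0 ± 2.9 CPM; SD, n = 2 each). All 4 had an adjusted p of 0.205 in edgeR and were among the DESeq2 calls. E6R libraries also differed from DMSO in mitochondrial UMIs, as given above, and the part of that in these values was not tested.

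Against TSA, E6R cells had 5 of 11 bZIP factors higher and 0 lower, and 5 of 11 transporters higher and 1 lower. They had 8 of 18 unfolded protein response genes lower and 2 higher, and 8 of 14 immediate-early genes lower and 0 higher. Over all tested genes, 18.7% were higher and 19.5% lower. The eIF2 list had 2 of 19 higher and 4 lower, and the synthetase list 4 of 21 higher and 3 lower. Serine and related enzymes had 3 of 13 higher and 2 lower, and other ATF4 targets 2 of 21 higher and 3 lower. The counts of these 4 lists were not stable. Under the alternatives that kept every library, 3 to 11 other ATF4 targets, 5 to 9 synthetase genes, 5 to 9 eIF2 genes and 4 to 5 serine and related enzymes were called. All 4 counts went lower in some fits with a library left out. With no low-count filter 8 bZIP factors were called. Calls fell to 2 bZIP factors without either TSA library, and to 3 transporters and 5 unfolded protein response genes without TSA replicate 2. SLC38A1 stood 3.96 higher (SE 0.23, adjusted p = 0.000228) and BCAT1 3.49 higher (SE 0.24) on the log2 scale. CALR stood lower with E6R (log2 -1.45, SE 0.24, adjusted p = 0.00336). STC2, a secreted ATF4 target named after its values were seen, was at 14.0 and 22.6 CPM with DMSO, 10.9 and 7.40 CPM with TSA and 22.9 and 39.2 CPM with E6R, and differed between E6R and TSA (log2 1.76, SE 0.38, adjusted p = 0.00877).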

How the data were processed

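The deposited files held raw UMI counts per gene and barcode for the 6 libraries, made with STARsolo 2.7.9a on GRCh38, per the submitters' processing notes. The sources used here do not state the annotation, the strand rule or the barcode rule. UMIs were summed over kept cells (at least 500 genes, at most 20% mitochondrial UMIs) and tested with edgeR 4.0.16 (R 4.3.3; quasi-likelihood, TMM, filterByExpr, group as the only term, all 6 libraries in 1 fit, Benjamini-Hochberg over 16763 genes). Standard errors came from the F statistic. The code was tested on simulated data. No doublet caller was run. DESeq2 1.42.0, other scalings, cell filters, thinning and left-out libraries were alternatives. Depth was 4206366 to 26180262 UMIs per library; intervals of cell shares cover counting error only, and the spread between libraries (common coefficient of variation 0.288) set the precision.

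The members and gene lists were chosen with earlier results of these data known. From each list, up to 3 genes that rose and 3 that fell most, among called genes with a mean of at least 20 CPM and groups apart, could be named, or else the gene with the smallest p. Others are marked. Coordinates are from GENCODE 29, promoters from RefSeq.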

Additional observations from a re-analysis of the deposited data

How the results depend on the processing

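Over the 17 alternatives the called members kept their directions, and with the replicate block the same numbers were called (4 members for TSA against DMSO, 0 for E6R against DMSO and 5 for E6R against TSA). The block gave 19 genes for E6R against DMSO. The labels do not say that replicate numbers mark a shared batch; deviations of same-numbered libraries correlated at 0.24 (DMSO and TSA), 0.56 (DMSO and E6R) and 0.17 (TSA and E6R) over 7515 genes. For TSA against DMSO, leaving out 1 library gave 0 to 4 called members (0 without TSA replicate 2, the library tagged reWTA) and 1416 to 6028 called genes instead of 4975, and thinning each cell gave 2 members. For E6R against DMSO, DESeq2 and no low-count filter each gave 1 member, with 338 and 1095 genes, and leaving out 1 library gave 0 to 3 genes. All deposited barcodes gave 1 gene and leaving out mitochondrial and ribosomal protein genes 1. For E6R against TSA, 6408 called genes became 4149 with cells thinned and 2628 to 6385 without 1 library. Thinned cells or fewer libraries also leave fewer counts to test. With cells thinned the TSA against DMSO log2 differences themselves moved as well. They were smaller for SESN2 (0.79 instead of 1.33), ATF3 (1.36 instead of 1.98) and DDIT4 (1.58 instead of 1.78), and larger in size for TRIB3 (-2.30 instead of -2.01). Why the numbers of calls differed between settings was not tested.

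The log2 differences that changed sign were all of genes that no fit called in that comparison. For TSA against DMSO, PHGDH gave -0.035 with DESeq2 size factors, -0.31 with total counts, -0.079 with no filter, -0.035 with DESeq2, -0.0057 with cells of at least 300 genes, -0.059 with library sums thinned, -0.032 with cells thinned and -0.078 without mitochondrial and ribosomal protein genes. ASNS gave 0.082 with the replicate block, 0.22 with all barcodes and 0.60 without the 5% of cells with most UMIs, and was filtered out under both thinnings. With 1 library left out, the ranges were -0.28 to 0.29 for PHGDH, -0.58 to 1.12 for ASNS, -0.87 to 0.33 for ATF4 and -0.94 to 0.0078 for CHAC1.

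For E6R against DMSO, no filter gave 0.032 for ATF4, 0.079 for DDIT3 and 0.087 for DDIT4. All barcodes gave 0.042, 0.088 and 0.15 for the same genes, and cells of at least 300 genes gave 0.0031 for DDIT3 and 0.0078 for DDIT4. ATF3 gave -0.057 with total counts and -0.22 under both thinnings, and TRIB3 -0.0093 with sums thinned and -0.14 with cells thinned. With 1 library left out, the ranges were -0.53 to 0.64 for ATF4, -0.40 to 0.77 for ATF3, -0.36 to 0.52 for DDIT3, -0.13 to 0.64 for TRIB3, -0.39 to 0.29 for DDIT4, -0.011 to 0.53 for PHGDH, -0.084 to 1.04 for PPP1R15A and -0.61 to 0.55 for SLC7A11. For E6R against TSA, ATF4 ranged from -0.016 to 0.49, and CHAC1 gave 0.18 with sums thinned.

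A group left with 1 library is assumed to vary like the others.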
